A study of Caenorhabditis elegans with 4 samples.

Results

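HTZ-1 regions split into several peaks were taken here as the peaks of the first ChIP replicate that overlapped, by at least 1 bp, 2 or more peaks of the combined list of the series. They numbered 1048 of the 3848 replicate 1 peaks (27.2%) and held 2592 of the 7546 combined-list peaks (34.3%). These 2592 peaks are called pieces below. A further 2798 replicate 1 peaks held 1 combined-list peak and are called unsplit, and 2 held none. The ChIP samples came from wild-type N2 worms, the standard laboratory strain, as embryos of mixed stages from a population of males and hermaphrodites grown at 20 °C. Chromatin was cross-linked in live embryos and immunoprecipitated with an affinity-purified rabbit polyclonal antibody against the N-terminus of HTZ-1, in replicates 1 and 2. A matched input DNA sample accompanied each replicate, carried the same strain, stage and genotype, and was not analysed here. Whole embryos hold many cell types and stages, so a split region may combine sites from different cells, which these lists cannot separate.

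HTZ-1 is the C. elegans H2A.Z, a histone variant that replaces H2A in some nucleosomes. In many organisms H2A.Z is placed beside the nucleosome-depleted stretch at gene starts and at other regulatory elements, by remodelling complexes of the SWR1 family. Worm genes lie close together, and some are transcribed away from each other from neighbouring starts, so that sites on a chromosome can lie within a few nucleosomes of each other. Peak callers join or divide such neighbouring enrichment according to their settings. A region that 1 list gives as a single peak can therefore appear as a row of separate peaks in another.

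The number of reads behind the lists is unknown, so no counting error can be given for a single peak. All intervals below are 95% intervals (exact binomial for shares, order-statistic for medians, Newcombe for differences of shares) and cover counting error only. Neighbouring peaks are not independent. Each replicate has 1 peak list and the rule used replicate 1 and the combined list, so no test over samples was possible for the make-up or placement of the regions, and those values are descriptions. The replicate 2 list was not used by the rule, although reads of both ChIP replicates are assumed to stand behind the combined list. Positions are on WormBase WS220. Genes and bases at these positions were not analysed here, because no genome or annotation of that build was used.

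Most split regions held few pieces. There were 726 regions with 2 pieces (69.3%), 215 with 3 (20.5%) and 67 with 4 (6.39%). The remaining 40 regions (3.82%) held 5 or more, including 3 regions with 7 pieces and 3 with 8. Regions with more pieces were wider. Median width was 3104.5 bp for regions with 2 pieces, 4356 bp for those with 3, 5648 bp for those with 4, and 7209.5 bp for those with 5 or more. Over all split regions the median was 3543.5 bp (quartiles 2530.25 and 4714.5 bp, range 1439 to 12330 bp), against 2277 bp (quartiles 1901 and 2673 bp) for unsplit regions. Split regions made up 4.01 Mb of the 10.6 Mb covered by replicate 1, a share of 37.8%.

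Wide replicate 1 peaks were split far more often than narrow ones. When the list was cut into 4 width classes of nearly equal size, the widest class ran from 3048 to 12330 bp and 647 of its 962 peaks were split (67.3%, interval 64.2% to 70.2%). In the next class, from 2426 to 3046 bp, 169 of 960 were split (17.6%). The share was 12.4% in the class from 1982 to 2425 bp and 11.7% in the narrowest class. In all, 401 split regions (38.3%) lay outside the widest class.

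**Figure D1:**
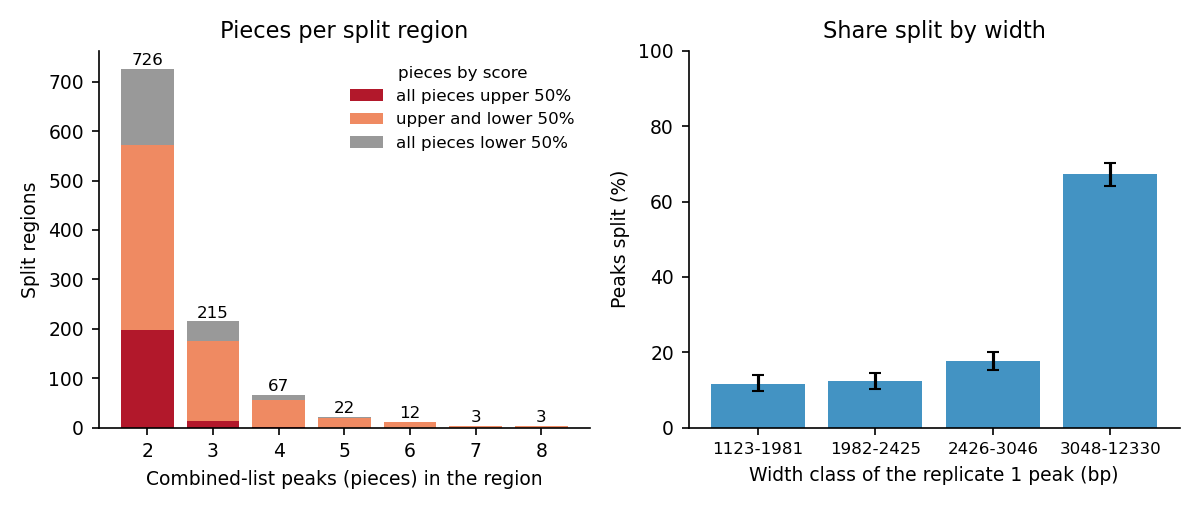
Left, number of split regions by the number of pieces they held, with colours for regions whose pieces all lay in the upper 50% of the combined list by score, in both parts, or all in the lower 50%. Right, share of replicate 1 peaks that were split in 4 width classes of nearly equal size, with exact 95% intervals. Regions with 2 pieces were the most frequent, and 67.3% of the widest class were split against 17.6% or less in the others.

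The boundary of the rule was a matter of a few bases at some places. The 2 members with the smallest second overlap, at chromosome I, 2332177 to 2333899, and chromosome V, 298038 to 299697, each met their second piece by 19 bp. Both ranked low in the replicate 1 list by score, at rank percentiles of 10.9 and 11.3 (counted upward from the lowest score), and neither was met by a replicate 2 peak. Just outside, a peak at chromosome IV, 12144565 to 12147004, had a further combined-list peak 7 bp past its edge. Another at chromosome V, 2254261 to 2256357, had one 13 bp away. Requiring 50% of each piece to lie inside the region left 1035 split regions. The share split depended more on the combined list, and was 18.4% when pieces less than 200 bp apart were merged and 8.91% when only its upper 50% by score was used.

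The score of each deposited peak is that of the authors' caller, on an unstated scale, and is used as a rank within its list. A piece is called strong when it lay in the upper 50% of the combined list by score, and weak otherwise. Of the 2592 pieces, 1224 were strong (47.2%) and 1368 weak (52.8%), beside 50% weak in the whole list. Pieces of unsplit regions differed from this, with 2426 of 2798 strong (86.7%). The strongest piece of a split region, picked as the highest of several, had a median rank near that of the single piece of an unsplit one. It lay at a median rank percentile of 72.2 (quartiles 54.6 and 87.4), against 73.2 (quartiles 58.8 and 86.7) for pieces of unsplit regions, and 45.9% and 46.6% respectively lay in the upper 25% of the list. The upper 50% held 80.3% of strongest pieces (interval 77.8% to 82.7%) and 86.7% of pieces of unsplit regions (interval 85.4% to 87.9%). The second piece, which is lower by definition, stood at a median rank percentile of 37.6, and 94 regions (8.97%) had a second piece in the upper 25%.

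By their pieces the regions fell into 3 classes. In 630 (60.1%, interval 57.1% to 63.1%) strong and weak pieces lay together, and these are called mixed regions. With 47.2% of pieces strong, the cut at 50% gives many mixed regions by itself. The share that the cut alone would give was not computed. All pieces were strong in 212 (20.2%) and all were weak in 206 (19.7%). Strong regions were the widest, with a median of 4272.5 bp, and 197 of the 212 held exactly 2 pieces. Mixed regions had a median width of 3649 bp and made up all 18 regions with 6 or more pieces. These counts follow in part from the definition, since a region with more pieces is more likely to hold both kinds. Weak regions were as narrow as unsplit ones, with a median of 2283 bp. In the replicate 1 ranking the median rank percentile was 81.1 for strong, 58.4 for mixed and 12.2 for weak regions. The combined list that defines the classes is taken to draw on replicate 1 as well, so this order is not independent of them. Many high scores in that list are tied at 3100, and 42.5% of strong regions, 17.6% of mixed and 0 of 206 weak regions stood at that value or above. A count of 0 among 206 allows a share of up to 1.77% (upper exact bound). Unsplit regions stood there in 11.3% of cases.

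Strong pieces had the same size whether their region was split or not. Their median width was 1345.5 bp in split regions (quartiles 976 and 1709 bp) and 1332 bp in unsplit ones (quartiles 1034 and 1622.75 bp). Weak pieces were much narrower in split regions, with a median of 323 bp (quartiles 208.75 and 513.25 bp), than the weak pieces that made up an unsplit region alone, with a median of 700.5 bp. Combined-list peaks outside every replicate 1 peak had a median width of 284 bp. The strongest piece was also the widest in 873 regions (83.3%). Together the pieces covered a median of 55.1% of a split region (quartiles 45.95% and 63.1%), and a single piece covered a median of 54.9% of an unsplit region. Coverage was 61.5% in strong, 56.0% in mixed and 40.9% in weak regions.

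Pieces sat inside the region with free margins. The pieces of a region spanned a median of 2481 bp from the first start to the last end. In 41 split regions (3.91%) a piece reached past the edge, whereas this happened in 0 of the 2798 unsplit regions. A piece of an unsplit region lay close to the middle, its centre a median of 0.044 of the half-width away from the region's centre. In mixed regions with 2 pieces the strong piece was displaced by a median of 0.230 of the half-width, and in strong regions with 2 pieces the stronger one by 0.400. Separate pieces cannot all lie at the centre, so this order follows in part from the number and widths of the pieces. The weak piece of a 2-piece mixed region was on the side of the lower coordinate in 176 of 375 cases (46.9%, interval 41.8% to 52.1%), so neither side of the chromosome was preferred beyond counting error.

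Within the regions, 1544 gaps separated neighbouring pieces. The median gap was 281.5 bp (interval 257 to 304 bp, quartiles 116 and 627.25 bp), and the range was 43 to 4409 bp. In all, 335 gaps (21.7%) were under 100 bp, less than the length of DNA in a nucleosome, and 143 (9.26%) were over 1000 bp. The shortest gap, 43 bp, was also the shortest in the whole combined list, where 9 gaps had that length. Split regions held 639 of the 814 gaps of 200 bp or less in the combined list (78.5%), beside 1544 of its 7540 gaps in all (20.5%). The rule fixes part of this, since 2 neighbouring pieces that meet the same replicate 1 peak make it split. The median gap was 554 bp after merging pieces less than 200 bp apart and 646 bp between pieces of the upper 50% of the list.

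The median gap was longest between strong pieces, although the longest single gaps were not. Pairs of strong pieces numbered 307, with a median gap of 526 bp (quartiles 245.5 and 827 bp), and 51.8% of these gaps were over 500 bp. Pairs of a strong and a weak piece numbered 770, with a median gap of 255 bp (quartiles 111.25 and 583 bp). The 467 pairs of weak pieces had a median gap of 196 bp (quartiles 89.5 and 434 bp), and 26.8% were under 100 bp. Measured between piece centres, the distances had medians of 1887 bp for strong pairs, 1193.25 bp for strong with weak and 618.5 bp for weak pairs. The centres of strong pairs had quartiles of 1542 and 2385 bp, and no pair was closer than 583.5 bp. Since strong pieces are wider, part of this distance is their own width.

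**Figure D2:**
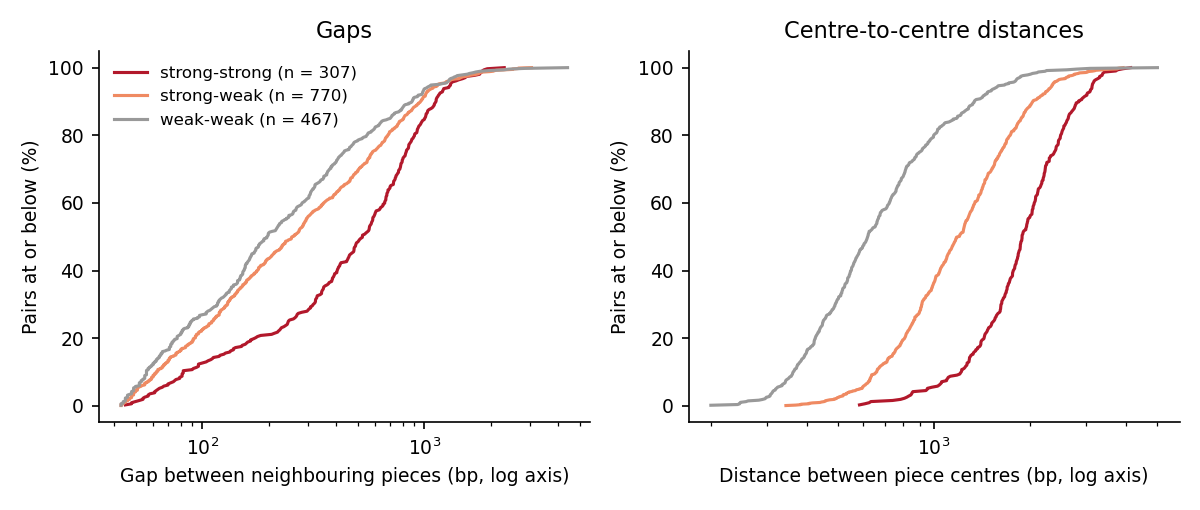
Cumulative share of neighbouring pairs of pieces by gap (left) and by the distance between piece centres (right), both on log axes, for pairs of strong pieces, pairs of a strong and a weak piece, and pairs of weak pieces. The median gap was 526 bp for strong pairs, 255 bp for strong with weak and 196 bp for weak pairs.

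The regions with the most pieces were mostly rows of narrow weak pieces beside 1 to 3 strong ones. The widest of those with 8 pieces was at chromosome I, 2315702 to 2325114 (9413 bp). It held a single strong piece of 2033 bp with a score of 135.9 (rank percentile 95.4), and 7 weak pieces of 230 to 561 bp. Its longest gap was 1452 bp. Replicate 2 had 1 peak there, of 4031 bp, which met 3 of the 8 pieces, the strong one among them.

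A region on chromosome V, 4332882 to 4340279, also had 8 pieces but no piece of high rank. The strongest had a score of 33.48 (rank percentile 61.6), and the first 6 pieces, all weak and 168 to 568 bp wide, followed each other with gaps of 45, 87, 66, 116 and 186 bp. Replicate 2 gave the whole row as a single peak of 7650 bp that met all 8 pieces. The region on chromosome IV, 14078248 to 14083763, had 8 pieces with gaps of at most 384 bp. Here replicate 2 had 2 peaks, 596 bp apart, each around 1 of the 2 strong pieces.

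The widest replicate 1 peak of all, at chromosome III, 3718462 to 3730791 (12330 bp), had 7 pieces. Its first piece had a score of 146.02 (rank percentile 96.99) and was separated from the rest by a gap of 2287 bp. Replicate 2 broke it into 3 peaks, which met 4 of the 7 pieces. The other regions with 7 pieces were at chromosome I, 713913 to 722574, and chromosome III, 10438931 to 10446460. In the first, 2 strong pieces of 1266 and 3080 bp were accompanied by 5 weak ones, and a single replicate 2 peak of 5737 bp met 5 of the 7. In the second, the strong pieces stood at the ends, replicate 2 had a peak at each end, and the 3132 bp between these peaks held 4 weak pieces.

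Regions picked for the score of their second piece looked different, in part through that choice. On each autosome the region with the strongest second piece had a pair of high-ranking pieces under a single replicate 2 peak. On chromosome I, 10188964 to 10194344, pieces of 1676 and 1571 bp with scores of 156.72 and 130.09 (rank percentiles 98.3 and 94.3) were 322 bp apart. On chromosome II, 5345517 to 5351608, the scores were 136.1 and 141.56 and the gap was 1309 bp. On chromosome III, 12709685 to 12715292, they were 146.78 and 161.71, with a gap of 822 bp.

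The chromosome IV region, 16861580 to 16869206, contained the widest piece of these 6 regions, 4265 bp with a score of 190.28. It lay 76 bp from a piece with a score of 135.07, and 2 weak pieces at the edge were not met by replicate 2. On chromosome V, 1867548 to 1873481, a weak piece of 156 bp lay between strong ones with scores of 154.16 and 162.09. These 5 autosomal regions stood at 3100 in replicate 1, and their replicate 2 peaks did too. The X region, 1852711 to 1857602, was lower, with scores of 78.72 and 68.05 and a score of 1734 in replicate 1. Its pieces, of 1278 and 1263 bp, were 1216 bp apart, and replicate 2 gave them as 2 peaks separated by 173 bp.

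**Figure D3:**
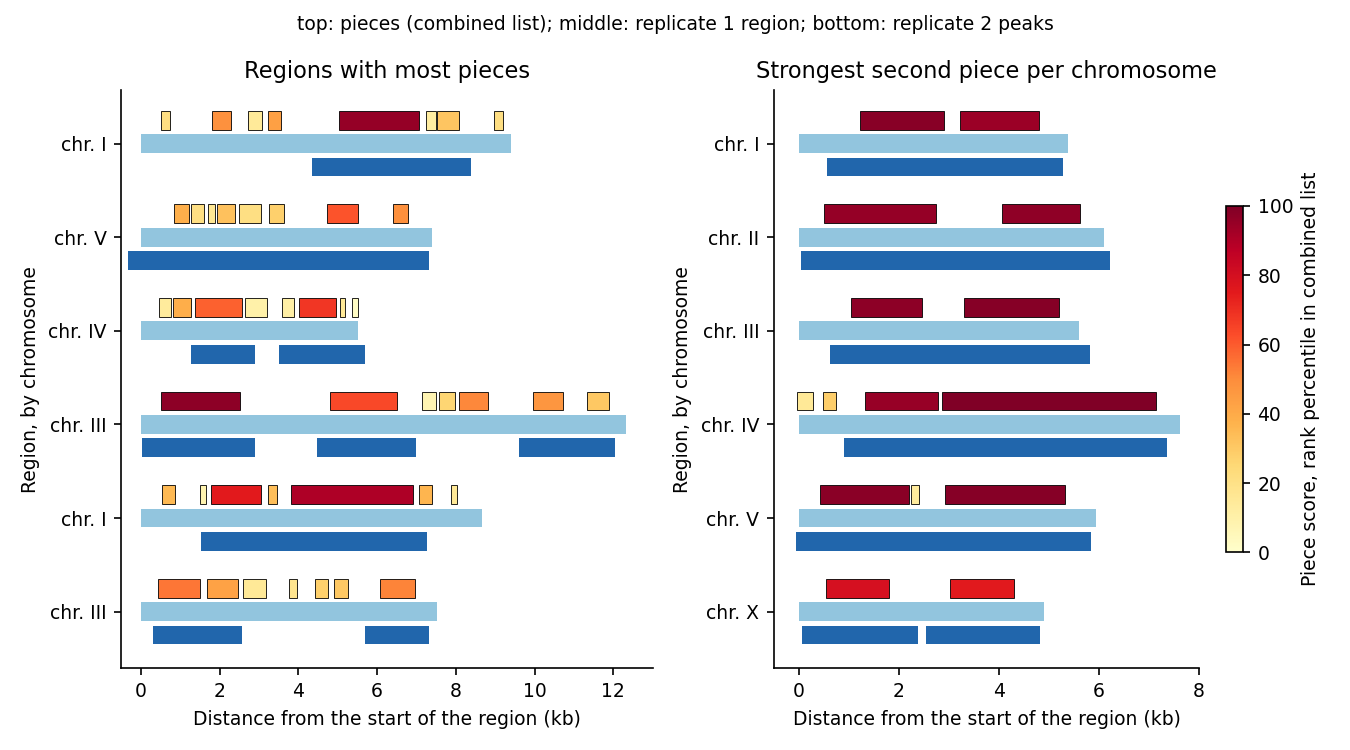
Maps of the 6 regions with the most pieces (left) and of the region with the strongest second piece on each chromosome (right), drawn to scale from the start of the region in kb. Pieces of the combined list (top row of each map) are coloured by rank percentile of score within that list, with the replicate 1 region beneath (light blue) and the replicate 2 peaks at the bottom (dark blue). The 6 maps on the left hold rows of up to 8 pieces, most of them low in rank, and 5 of the 6 on the right lie under 1 replicate 2 peak.

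The longest gaps belonged to weakly scored regions. The longest, 4409 bp, was in a region at chromosome III, 4430957 to 4440094, whose 2 weak pieces covered 13.3% of it. The next, 3035 bp, was at chromosome I, 5157048 to 5162868, between a strong piece of 1255 bp and a weak one of 167 bp. At chromosome V, 5716644 to 5722650, 3 weak pieces of 148 to 348 bp were set apart by gaps of 981 and 2843 bp. Replicate 2 met the strong piece on chromosome I and none of the other pieces of these 3 regions.

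Whether the second ChIP replicate saw the same region as a single peak was examined next. Of the 1048 split regions, 757 were met by exactly 1 replicate 2 peak (72.2%, interval 69.4% to 74.9%), beside 82.7% of all replicate 1 peaks. No replicate 2 peak met 169 of them (16.1%), beside 14.1% of all. The remaining 122 (11.6%, interval 9.76% to 13.7%) were met by 2 or more, beside 3.25% of all. Of the unsplit regions, 86.6% were met by 1 replicate 2 peak and 3 of 2798 (0.107%) by 2 or more. Split regions thus made up 122 of the 125 replicate 1 peaks that replicate 2 gave in parts. Replicate 2 reads are assumed to have helped form the pieces, so each of several replicate 2 peaks can bring its own piece. The rule can then make such a region split by itself, and how far this accounts for the contrast was not tested.

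Width moved with this outcome. In the widest class, 119 of 647 split regions (18.4%, interval 15.5% to 21.6%) were met by 2 or more replicate 2 peaks, and 0 of 315 unsplit regions were (upper exact bound 1.16%). Widths were not matched inside this class. Unsplit regions reached 6978 bp at most and split ones 12330 bp, with 90th percentiles over all widths of 3112 and 5962.3 bp. Below that width the share in split regions was at most 1.18% per class. Peaks in the upper 50% of the replicate 1 list by score showed the same contrast, with 108 of 558 split regions (19.4%) and 1 of 1366 unsplit regions (0.0732%) met by 2 or more. In that part of the list no region of either kind lacked a replicate 2 peak. In the lower 50%, 34.5% of split and 25.9% of unsplit regions had none. The shares met by 2 or more carry the dependence on replicate 2 reads named above, in every width class and score part.

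The outcomes also differed with the class of the pieces. This class rests on scores of the combined list, which is taken to draw on replicate 2, so it is not independent of the outcome. Every one of the 212 strong regions was met by replicate 2, by 1 peak in 172 (81.1%) and by 2 or more in 40 (18.9%). Mixed regions were met by 1 peak in 527 of 630 cases (83.7%), by 2 or more in 79 (12.5%) and by none in 24 (3.81%). For the 206 weak regions the order was turned round, with none in 145 (70.4%, interval 63.6% to 76.5%), 1 peak in 58 (28.2%) and 2 or more in 3 (1.46%). Weak regions were thus seldom found in the second replicate. Counted by pieces in place of whole regions, replicate 2 met 129 of 479 pieces of weak regions (26.9%). It met a like share of the weak pieces of unsplit regions, 104 of 372 (27.96%). Of the strong pieces of unsplit regions 2321 of 2426 (95.7%) were met.

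A single replicate 2 peak did not always cover every piece. All pieces of a region were met by the same replicate 2 peak in 584 of 1048 regions (55.7%, interval 52.7% to 58.8%). This held for 76.9% of strong, 59.7% of mixed and 21.8% of weak regions, and for 64.9% of regions with 2 pieces, 43.3% with 3 and 18.7% with 4 or more. Replicate 2 peaks met 1919 of the 2592 pieces (74.0%), beside 62.8% of all combined-list peaks. The combined list includes 2156 peaks outside every replicate 1 peak, so this background is not a like group. Strong pieces were nearly always met, 1181 of 1224 (96.5%), beside 94.9% of all strong peaks of the combined list. Of the weak pieces 738 of 1368 (53.9%) were met, beside 30.7% of all weak peaks of that list. Pieces of unsplit regions were strong in 86.7% of cases, and replicate 2 met 95.7% of their strong and 27.96% of their weak pieces. Weak pieces of mixed regions were met in 68.5% of cases (interval 65.3% to 71.5%) and those of weak regions in 26.9% (23.0% to 31.1%). In a mixed region the replicate 2 peak of the strong piece can reach the weak one, and how far this accounts for the higher share was not tested.

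The gap between 2 pieces went with whether replicate 2 joined them. Among 1544 neighbouring pairs, 919 (59.5%) lay under the same replicate 2 peak and 100 (6.48%) under different ones. In 235 pairs (15.2%) only 1 piece was met, and in 290 (18.8%) neither. Pairs under the same peak had a median gap of 192 bp (quartiles 94 and 408 bp), and pairs under different peaks one of 1014.5 bp (quartiles 788.25 and 1210.75 bp). No pair with a gap of 200 bp or less was divided between replicate 2 peaks, out of 339 pairs at 100 bp or less and 300 over 100 and up to 200 bp.

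Strong pairs gave the cleanest series, since at least 1 of their pieces was met in all 307 cases. Replicate 2 put both pieces under the same peak in 39 of 39 pairs with gaps of 100 bp or less, and in 25 of 25 with gaps over 100 and up to 200 bp. It did so in 83 of 84 up to 500 bp (98.8%) and in 84 of 112 up to 1000 bp (75%, interval 65.9% to 82.7%). Over 1000 bp it did so in 3 of 47 (6.38%, interval 1.34% to 17.5%), and 40 of these 47 pairs (85.1%) were under different peaks. Both replicate lists carry the same caller name, and the sources used here do not state the distance at which that caller joins neighbouring signal. Replicate peaks also reach past the pieces. Unsplit replicate 1 regions had a median width of 2277 bp, and their pieces one of 1263 bp. Pieces closer together than such margins can fall under 1 peak by its width, and how far this accounts for the series was not tested.

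**Figure D4:**
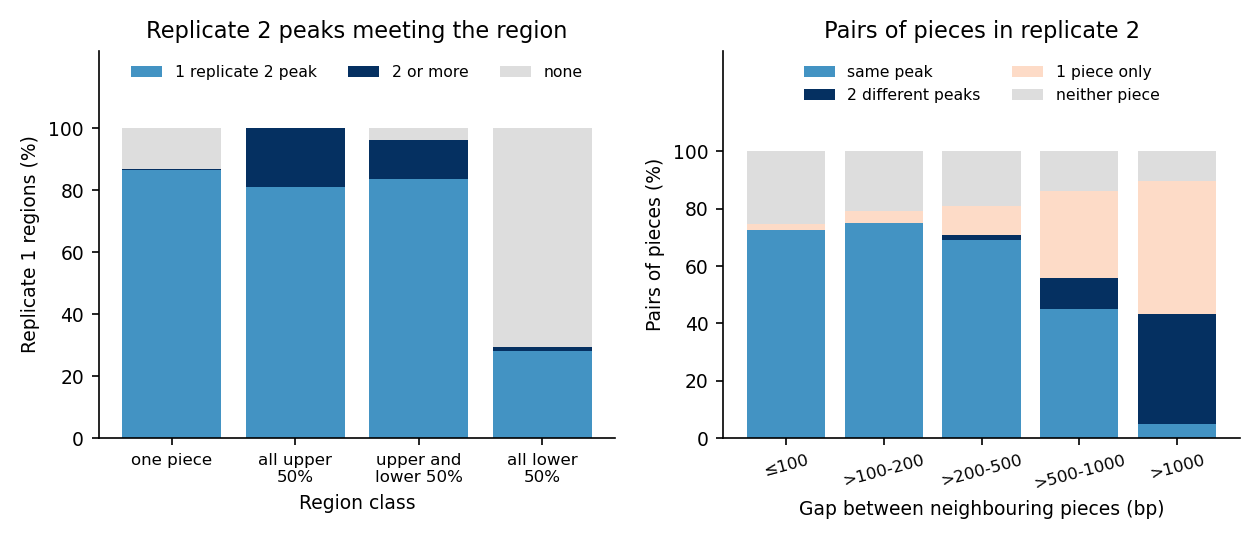
Left, share of replicate 1 regions met by 1, by 2 or more, or by no replicate 2 peak, for unsplit regions (one piece) and the 3 classes of split regions. Right, share of neighbouring pairs of pieces whose 2 pieces were met by the same replicate 2 peak, by different peaks, of which only 1 piece was met, or neither, by gap length. Weak regions lacked a replicate 2 peak in 70.4% of cases, and pairs under the same peak fell from 72.6% at gaps of 100 bp or less to 4.90% over 1000 bp.

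Where replicate 2 broke a split region, the break mostly fell between pieces. Of 128 breaks between neighbouring replicate 2 peaks inside split regions, 109 (85.2%, interval 77.8% to 90.8%) had their midpoint in a gap between pieces, 13 (10.2%) inside a piece and 6 (4.69%) outside the outermost pieces. Replicate 2 reads are assumed to stand behind the combined list as well, so this placement is not independent of it.

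Replicate 2 peaks were somewhat narrower at the regions that replicate 1 defined. Where a split region was met by 1 replicate 2 peak, that peak had a median width of 2872 bp against 3611 bp for the region, and it was the narrower one in 558 of 757 cases (73.7%). The median difference, replicate 2 minus replicate 1, was -293 bp (quartiles -951 and 9 bp). In unsplit regions it was -42 bp (quartiles -210 and 107.25 bp). The regions were chosen on replicate 1 positions, which bears on the sign of such a difference. With the rule turned round, 849 of 3650 replicate 2 peaks (23.3%) held 2 or more pieces, and 742 of these (87.4%) met a split replicate 1 region. Conversely 722 of the 1048 split regions (68.9%) met a replicate 2 peak that was itself split. Of the 849 split replicate 2 peaks, 90.1% were met by exactly 1 replicate 1 peak, and in 85.2% all the pieces lay under the same replicate 1 peak, so both shares were higher from this side.

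Split regions were found on every chromosome, in unequal shares of the local peaks. On chromosome I 275 of 831 replicate 1 peaks were split (33.1%, interval 29.9% to 36.4%). The shares were 30.9% on IV (202 regions), 29.4% on III (224), 24.5% on II (153), 21.9% on V (123) and 17.1% on X (71). The intervals of neighbours in this order overlapped, whereas the interval on X (13.6% to 21.1%) lay below those on I, III and IV, and just under that on II (21.2% to 28.1%). Per Mb of chromosome there were 18.2 split regions on I and 16.3 on III, against 5.89 on V and 4.03 on X, where replicate 1 peaks were sparser in all.

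Split regions on X were also smaller. Their median width was 2413 bp against 3670 bp on autosomes, and the median of the longest gap in a region was 228 against 393 bp. Strong regions made up 7 of 71 on X (9.86%) and 205 of 977 on autosomes (20.98%), a difference of -11.1 percentage points (interval -16.8 to -1.68). Weak regions made up 32.4% and 18.7% (difference 13.7 points, interval 3.59 to 25.4). The strong and weak shares of all combined-list peaks on X are not given here, so neither difference can be called particular to split regions. All 7 strong regions of X lay on its arms, beside 54 of its 71 split regions and 276 of its 414 replicate 1 peaks. Arms are the parts of a chromosome outside its central 1/3.

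The smaller share split on X moved with the width of the peaks there. X differed from the autosomes by -11.3 percentage points over all peaks (17.1% against 28.5%, interval -14.96 to -7.10). Only 6.52% of X peaks belonged to the widest class, against 27.2% of autosomal ones. Within that class 19 of 27 X peaks (70.4%) and 67.2% of autosomal peaks were split (an interval of the difference from -15.9 to 17.3 points). In the classes of narrower peaks the differences were 9.21, -4.67 and 2.32 points from the wider to the narrowest, each with an interval that included 0. Averaged over the 4 classes with Mantel-Haenszel weights, which give most weight to classes with many X peaks, the difference was 0.80 points with an interval of -2.84 to 4.44. The difference over all peaks was -6.17 points with the rule applied to replicate 2 and -20.2 points in the upper 50% of replicate 1 by score.

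In C. elegans, autosomal arms recombine more and hold more repeated DNA, while conserved genes that most cells use are commoner in the centres. The arms used here were set by length alone, not by recombination or gene content. On arms 645 of 2106 replicate 1 peaks were split (30.6%, interval 28.7% to 32.6%) and in centres 332 of 1328 (25%, interval 22.7% to 27.4%), a difference of 5.63 percentage points (interval 2.55 to 8.64). Arms had the higher share on 4 of 5 autosomes, from 34.1% against 21.9% on III to 23.7% against 19.3% on V. Chromosome I was the exception, with 32.6% on arms and 33.9% in the centre. Taken singly, the intervals of the difference excluded 0 on II and III.

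Arm peaks had a median width of 2415.5 bp and centre peaks one of 2591.5 bp. The difference in share split was 10.2 points (interval 4.02 to 16.4) in the widest class, where 401 of 563 arm and 227 of 372 centre peaks were split, 8.26 points (3.36 to 13.1) in the next and 6.25 (1.50 to 10.7) in the next. In the narrowest class it was 1.66 points (-3.64 to 6.06). Strong regions made up 21.6% of the split regions on arms and 19.9% in centres, and weak regions 19.8% and 16.6%, and both differences had intervals that included 0. Counted per Mb, arms and centres had 11.7 and 12.1 split regions, since peaks of all kinds were denser in the centres (48.3 against 38.3 per Mb). Over the alternatives run, arms exceeded centres in the share split by 2.65 points (upper 50% of the combined list) to 10.7 points (upper 50% of replicate 1). With arms taken outside the central 1/2 of each autosome, the difference was 4.55 points (1.51 to 7.61).

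**Figure D5:**
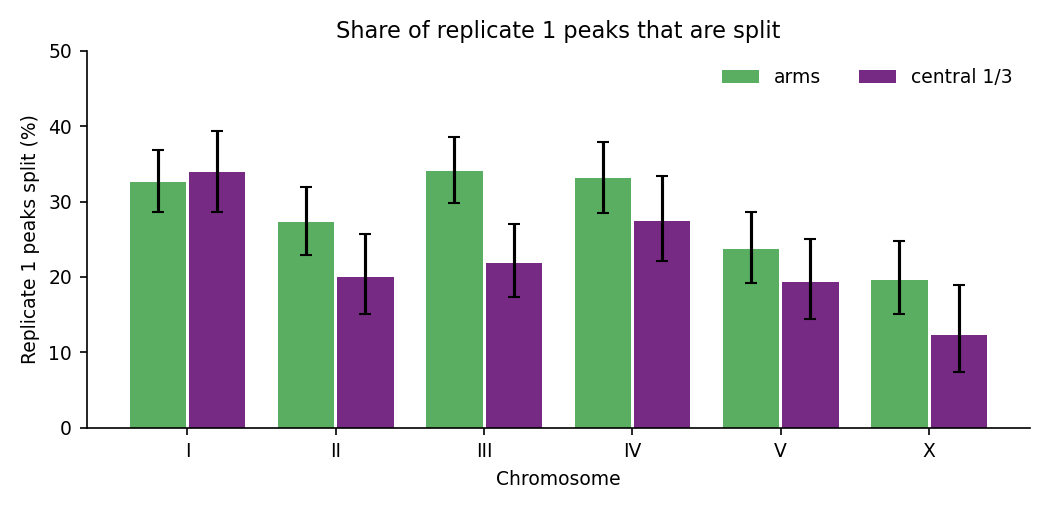
Share of replicate 1 peaks that were split on the arms and in the central 1/3 of each chromosome, with exact 95% intervals that cover counting error. Arms had the higher share on II, III, IV, V and X, and on I the values were 32.6% and 33.9%.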

How the data were processed

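The deposited files are 3 peak lists with positions on WormBase WS220, per the file headers. Reads were aligned with BWA to ce10, per the submitters' processing notes. Per the files' source column, the caller was MACS for each replicate and MACS v2 for the combined list. Thresholds, read filters, the role of the input and the making of the combined list are not given in the sources used here. The combined list names no sample and was taken to draw on both ChIP replicates. The peak score deposited by the authors is that of their caller, of unstated scale, and was used as a rank within each list. Depth is unknown.

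Overlaps of at least 1 bp, gaps (bases between neighbouring pieces), exact binomial, order-statistic and Newcombe 95% intervals were computed with Python 3.11.15, pandas 2.3.3 and scipy 1.17.1. The functions were checked on simulated lists. Strong pieces had scores above the list's median of 17.01. Chromosome length was the furthest peak end. Regions named were the 6 with most pieces, the one with the strongest second piece per chromosome, the 3 with the longest gap and 2 on each side of the rule's threshold. The members, classes and limits were chosen with earlier results of these data known. No test over samples was possible. Input samples were left out.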

Additional observations from a re-analysis of the deposited data

How the results depend on the processing

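No paired analysis was possible because the input samples that share replicate numbers with the ChIP samples have no list used here and no value comes from a test. Requiring 50% of a piece inside the region moved no value beyond its interval. With the upper 50% of the combined list, 8.91% of replicate 1 peaks were split, 10.8% of these regions held 3 or more pieces, median piece width was 1360 bp, median gap 646 bp and median coverage 59.3%, and 1 replicate 2 peak met all pieces in 67.1%. Shares of weak pieces and of mixed regions have no meaning there. With pieces less than 200 bp apart merged, 18.4% were split, 20.2% of regions held 3 or more pieces, width was 928 bp, gap 554 bp and coverage 56.07%. Weak pieces then made up 43.6%, mixed regions 52.7%, and 1 replicate 2 peak met all pieces in 47.6%. In the upper 50% of the replicate 1 list, 29.0% were split, 37.3% of regions held 3 or more pieces, width was 1140.5 bp, gap 347 bp and coverage 61.1%. Weak pieces made up 38.6%, mixed regions 67.7%, exactly 1 replicate 2 peak met 80.6% of regions and 1 met all pieces in 60.6%. There arms differed from centres by 10.7 percentage points and X from autosomes by -20.2.

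Without replicate 1, that is with the rule applied to the replicate 2 list, 23.3% were split, 22.1% of regions held 3 or more pieces, width was 749 bp, gap 215 bp, coverage 62.4% and weak pieces 48.8%. Exactly 1 replicate 1 peak met 90.1% of these regions, all pieces lay under 1 peak in 85.2%, and X differed from autosomes by -6.17 points. The share met as 1 peak thus depended on which replicate gave the regions. Arms minus centres stayed positive in every alternative run, from 2.65 to 10.7 points. The width classes were added after the data were examined, and within them the weighted X difference was 0.80 points, with an interval of -2.84 to 4.44 that includes 0. Why the other values moved was not tested. Depth is unknown, so weak regions missing from replicate 2 cannot be told apart from regions below its detection limit.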

Other observations

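The median distance to the nearest other replicate 1 peak was 3760 bp for split and 4929 bp for unsplit regions, and 20.8% and 17.4% had one within 1000 bp. The replicate 2 peak at a region also met a further replicate 1 peak in 16 of 879 split regions (1.82%) and in 24 of 2427 unsplit ones (0.989%). In regions with 3 pieces the strongest piece was the middle one in 50 of 215 cases (23.3%, interval 17.8% to 29.5%). Only 53 unsplit regions (1.89%) were met by a replicate 2 peak that held 2 or more pieces.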
